A study of Mus musculus with 7 samples.

Results

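The UDP-glucuronosyltransferases of the Ugt1a and Ugt2b subfamilies were followed in RNA of glomeruli, the capillary tufts in which the kidney filters blood. Every gene symbol beginning with Ugt1a or Ugt2b was taken, which gave 11 of the 12958 symbols measured: 8 Ugt1a genes (Ugt1a1, Ugt1a2, Ugt1a5, Ugt1a6a, Ugt1a6b, Ugt1a7c, Ugt1a9 and Ugt1a10) and 3 Ugt2b genes (Ugt2b34, Ugt2b37 and Ugt2b38). The genes were chosen by name, but the family itself was selected on its measured differences between knockdown and control glomeruli. Its values in that comparison are therefore a description, and no p-value is given for the 11 genes. GENCODE annotates 9 Ugt1a and 7 Ugt2b genes in the mouse, and the other 5 were not analysed here.

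The knockdown group was 3 male BALB-C mice with an siRNA transgene directed at Shroom3, a gene for an actin-binding protein of epithelial cells. The control group was 4 male littermates that lacked the siRNA sequence. Both groups were given doxycycline with their food and drinking water, starting at 8 weeks of age and lasting 6 weeks, and were 14 weeks old. Which promoter drives the transgene, and whether the controls carried any other transgene, is not given in the sources used here. Glomeruli were collected with perfused beads, a magnet and sieves. Markers of kidney tubules were high in all libraries, as given below, so the RNA is that of a mixture with other kidney cells.

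UDP-glucuronosyltransferases sit in the membrane of the endoplasmic reticulum and couple glucuronic acid, taken from UDP-glucuronate, to drugs, bilirubin, steroids and phenols. The water-soluble glucuronides then leave in bile or urine. Liver is the main site of this chemistry, and in the kidney the proximal tubule is known for it. The Ugt1a genes form a single locus in which each gene has a first exon of its own, coding for the part of the enzyme that binds the substrate, spliced to a common set of later exons. The Ugt2b genes are separate, complete genes.

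The Ugt1a locus lies on the plus strand of chromosome 1 (GRCm38). The measured genes run from the start of Ugt1a10 at 88055388 to the end of Ugt1a7c at 88220002, and all of them contain exon 2 (88215044 to 88215175), exon 3 (88215795 to 88215882) and exon 4 (88216138 to 88216357). Exon 5 begins at 88218127 in all 8 genes and ends at 88218997 in 6 of them. It ends at 88219004 in Ugt1a10, and in Ugt1a7c it runs on to 88220002. The first exons of the 8 transcripts are 879 to 954 bases long, against 1311 bases of exons 2 to 5 common to all of them. Because a read from those exons has the same sequence whichever first exon it was spliced to, the junctions of 5 genes are printed here from GENCODE M21, with the last 30 bases of exon 1 in lower case and the first 30 bases of exon 2 in capitals, 5′ to 3′.
Ugt1a1: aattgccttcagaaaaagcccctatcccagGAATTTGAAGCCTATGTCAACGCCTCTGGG
Ugt1a2: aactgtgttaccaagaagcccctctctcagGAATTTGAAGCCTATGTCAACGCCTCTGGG
Ugt1a5: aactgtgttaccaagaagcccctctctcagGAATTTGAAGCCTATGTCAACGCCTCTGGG
Ugt1a7c: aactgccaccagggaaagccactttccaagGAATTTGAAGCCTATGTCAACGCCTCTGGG
Ugt1a9: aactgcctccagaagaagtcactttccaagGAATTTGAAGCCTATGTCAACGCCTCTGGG
The capitals are identical in all 5. Ugt1a2 and Ugt1a5 are also identical in the lower-case part, so a read confined to this window cannot be told apart between them.

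**Figure D1:**
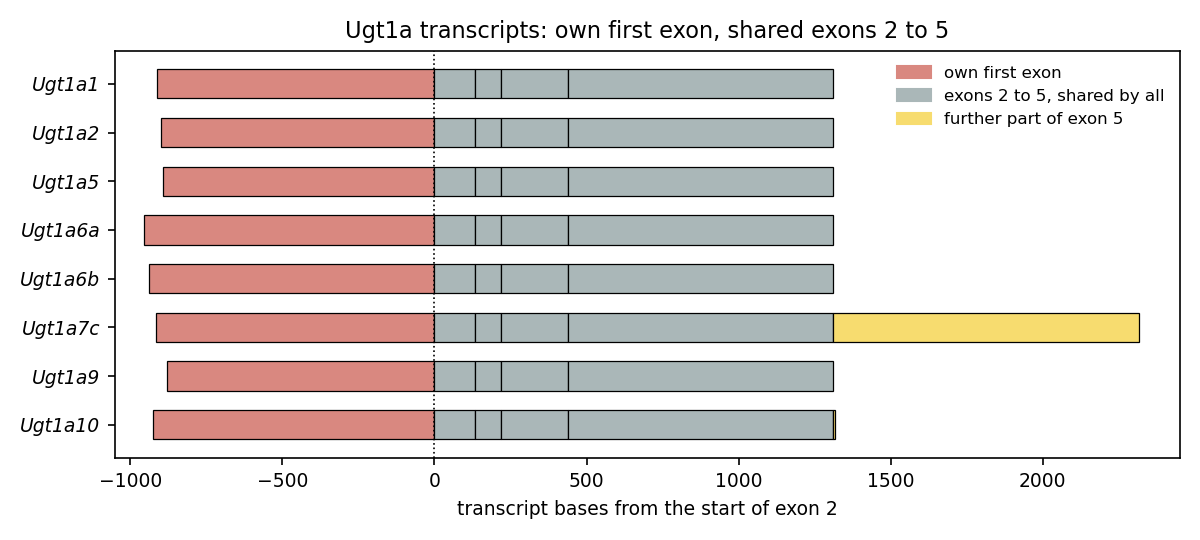
Drawing to scale of the 8 measured Ugt1a transcripts (GENCODE M21), in transcript bases from the start of exon 2. Red is each gene's own first exon, grey the exons 2 to 5 that all 8 share, and yellow the further part of exon 5, which is long in Ugt1a7c only.

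The share of a transcript that cannot be assigned by its sequence was measured as the percentage of its 50-base windows found unchanged in any annotated coding transcript of another Ugt1a or Ugt2b gene. It was 58.2% for Ugt1a1, 63.7% for Ugt1a2, 64.0% for Ugt1a5, 62.0% for Ugt1a9 and 61.0% for Ugt1a10. Ugt1a6a and Ugt1a6b have first exons that are 94.7% identical, and their shares were 97.7% and 78.6%. For Ugt1a6a, 95.8% of the windows also occurred in annotated transcripts of Ugt1a7c and 78.1% in those of Ugt1a6b. In each gene the share was measured for 1 transcript. Ugt1a7c had the lowest share of the Ugt1a genes at 40.9%, for the transcript with a long exon 5, which is 1 of its 3 annotated coding transcripts. The share of its other transcripts was not measured. In the Ugt2b subfamily, 0 of 3002 windows of Ugt2b34 were shared. Ugt2b37 shared 18.3% of its windows and Ugt2b38 37.4%. Of all windows of Ugt2b38, 34.1% occurred in Ugt2b5, a gene not analysed here, and 11.5% in Ugt2b37, some of them in both. How the authors assigned reads that match several of these genes, and whether strand was used, is not given in the sources used here, so the value of a single Ugt1a gene may contain reads of its neighbours.

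Each library gave a log2 expression value for the same 12958 symbols, with library medians between 9.15 and 9.16. Depth and counting error are unknown, because no counts were among the files used here. Sample titles came in 2 styles: those starting with G (2 knockdown, 3 control) and those starting with CB6 (1 knockdown, 1 control), which are knockdown replicate 3 and control replicate 4. Shroom3 itself averaged 10.86 ± 0.06 on the log2 scale in the knockdown libraries (SD, n = 3), against 11.05 ± 0.22 in the control libraries (SD, n = 4), with an adjusted p of 0.417 in limma over all genes, so the groups are called by their labels. Markers of podocytes, the filtration cells of the glomerulus, were present in all libraries, with 10 of 10 measured and a lowest value of 10.72 on the log2 scale. The 26 proximal tubule markers were also all measured, with a lowest value of 9.04. Summed on the linear scale, they gave 348743 to 504824 over the libraries, against 221519 to 309915 for the podocyte markers. The lists differ in length and in genes, so these sums do not give shares of cells. Values called those of glomeruli here are those of this mixture.

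The Ugt1a genes that passed the test were higher in knockdown glomeruli, and the Ugt2b genes that passed it were lower. A gene is called past the threshold where its adjusted p in limma, over all 12958 symbols, was under 0.05. Of the 8 Ugt1a genes, 4 were higher in knockdown glomeruli past the threshold, 0 were lower and 4 were not past it. Of the 3 Ugt2b genes, 0 were higher, 2 were lower and 1 was not past it. Over all symbols 391 were past the threshold (3.02%), 129 of them higher (0.996%) and 262 lower (2.02%). The median log2 difference, knockdown minus control, was 0.41 over the Ugt1a genes and -2.75 over the Ugt2b genes, against 0.02 over all symbols. The ranges of the groups did not overlap for 9 of the 11 genes, 7 Ugt1a genes higher and 2 Ugt2b genes lower in knockdown, where 18.4% of all symbols were without overlap. Because the Ugt1a genes share exons, their 8 values may not be separate observations; how reads were assigned among them is not known. The comparison between the subfamilies carries no test, since the members were chosen with these differences known.

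**Figure D2:**
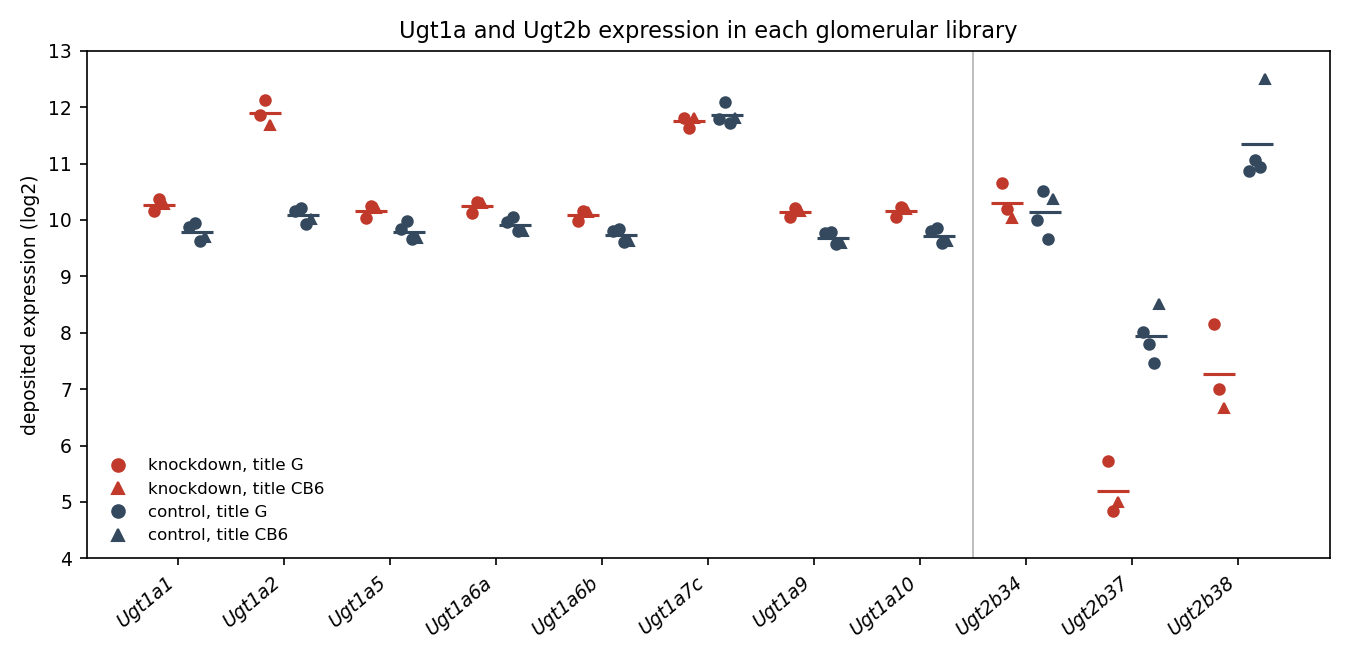
Deposited log2 expression of the 11 genes in each library, with knockdown in red to the left of control in blue, lines at the group means, circles for titles starting with G and triangles for CB6. Ugt1a2 lies above its controls by more than 1 unit, Ugt2b37 and Ugt2b38 lie below theirs, and the groups overlap in Ugt1a7c and Ugt2b34.

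Ugt1a2 (ENSMUSG00000090171.1; 88200601 to 88218997) had the largest difference of the Ugt1a genes. It held 11.86, 12.13 and 11.69 on the log2 scale in the 3 knockdown libraries, against 10.16, 10.22, 9.93 and 10.02 in the 4 control libraries. All knockdown libraries were higher than all control libraries, with a gap of 1.47 between the groups, and the lowest of the knockdown values was that of the CB6 library. Ugt1a2 averaged 11.89 ± 0.22 in knockdown libraries (SD, n = 3), against 10.08 ± 0.13 in control libraries (SD, n = 4). The log2 difference was 1.81 ± 0.11 (SE; 95% interval 1.56 to 2.06), which is 3.50-fold. Between the libraries titled G it was 1.89, and between the CB6 pair 1.67.

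Ugt1a1 (ENSMUSG00000089960.1; 88211959 to 88218997), the enzyme that conjugates bilirubin, held 10.17, 10.37 and 10.29 in knockdown and 9.87, 9.95, 9.63 and 9.70 in control glomeruli. The groups did not overlap, and the smallest gap between them was 0.22. Its log2 difference of 0.49 ± 0.09 (SE) was past the threshold and amounted to 1.40-fold. Within the libraries titled G the difference was 0.45, and in the CB6 pair 0.58.

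Ugt1a9 (ENSMUSG00000090175.1; 88070800 to 88218997) and Ugt1a10 (ENSMUSG00000090165.8; 88055388 to 88219004) have first exons that are 86.9% identical. Ugt1a9 held 10.04, 10.22 and 10.16 in knockdown against 9.76, 9.79, 9.57 and 9.59 in control glomeruli, a log2 difference of 0.46 ± 0.08 (SE). Ugt1a10 held 10.06, 10.23 and 10.19 in knockdown against 9.80, 9.86, 9.59 and 9.62 in control glomeruli, a log2 difference of 0.44 ± 0.09 (SE). Both were past the threshold, and in both every knockdown library was above every control library.

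Ugt1a6a (ENSMUSG00000054545.17; 88134809 to 88218997) and Ugt1a6b (ENSMUSG00000090145.7; 88103252 to 88219003), which encode enzymes for small phenols, were not past the threshold. Ugt1a6a held 10.13, 10.31 and 10.30 in knockdown and 9.97, 10.05, 9.80 and 9.80 in control glomeruli, with a log2 difference of 0.35 ± 0.08 (SE). For Ugt1a6b the values were 9.99, 10.15 and 10.14 in knockdown and 9.81, 9.85, 9.62 and 9.63 in control glomeruli, with a log2 difference of 0.37 ± 0.08 (SE). Ugt1a5 (ENSMUSG00000089943.1; 88166012 to 88218997), whose first exon is 79.7% identical to that of Ugt1a2, held 10.04, 10.24 and 10.21 in knockdown and 9.84, 9.98, 9.66 and 9.69 in control glomeruli. Its log2 difference of 0.37 ± 0.09 (SE) was not past the threshold. In these 3 genes, too, the knockdown libraries lay above all control libraries.

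Ugt1a7c (ENSMUSG00000090124.7; 88095062 to 88220002) was the exception in the locus. It held 11.82, 11.63 and 11.80 in knockdown and 11.80, 12.10, 11.71 and 11.81 in control glomeruli. The groups overlapped, and the log2 difference of -0.10 ± 0.10 (SE; 95% interval -0.32 to 0.11) was not past the threshold.

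The 3 calls of Ugt1a1, Ugt1a9 and Ugt1a10 did not hold in every setting. When title style entered the fit as a covariate, 3 of the 11 genes were past the threshold, and the same 3 genes were when the CB6 pair was left out (Ugt1a2 higher, Ugt2b37 and Ugt2b38 lower), against 6 in the fit of all libraries. The count was likewise 3 without knockdown replicate 2, without knockdown replicate 3 or without control replicate 4, and it was 9 without control replicate 2. Ugt1a2 stayed past the threshold in all 15 other settings in which it was fitted, with log2 differences of 1.69 to 1.91. All settings refit the libraries on which the family was selected, so they add no separate support for a call. The setting without a filter repeats the main fit, because the filter removed 0 genes.

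**Figure D3:**
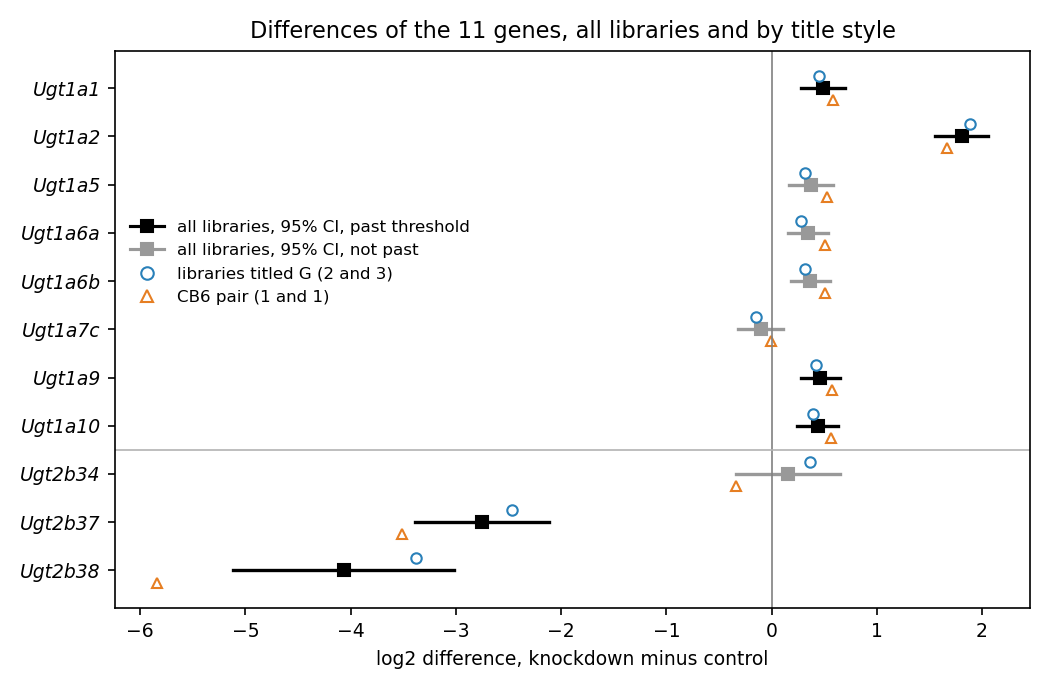
Log2 difference, knockdown minus control, of the 11 genes with its 95% interval (squares; black where past the threshold), beside the difference within the libraries titled G (circles) and within the CB6 pair (triangles). Both title styles give positive differences for 7 Ugt1a genes and negative ones for Ugt1a7c, Ugt2b37 and Ugt2b38, while they differ in sign for Ugt2b34.

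Set against each other inside a library, 6 Ugt1a genes formed a narrow band. Ugt1a1, Ugt1a5, Ugt1a6a, Ugt1a6b, Ugt1a9 and Ugt1a10 spanned 0.17 to 0.21 log2 units in the knockdown libraries and 0.20 to 0.25 in the control libraries. This band was picked after its values were seen. The mean of the band was 10.07, 10.25 and 10.22 in knockdown and 9.84, 9.91, 9.65 and 9.67 in control libraries. These genes have similar transcript lengths, from 2190 to 2265 bases, and their transcripts have exons 2 to 5 in common.

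Ugt1a2 lay above the mean of the band by 1.79, 1.87 and 1.47 log2 units in the knockdown libraries, against 0.32, 0.31, 0.29 and 0.35 in the control libraries. In controls it was thus close to the band, and in knockdown glomeruli it stood apart from it. Ugt1a7c lay above the band by 1.74, 1.38 and 1.59 in knockdown libraries and by 1.96, 2.19, 2.07 and 2.14 in control libraries. Whether reads of Ugt1a2 transcripts from the common exons enter the values of the other Ugt1a genes was not tested, as the files hold 1 value per gene and none per exon.

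**Figure D4:**
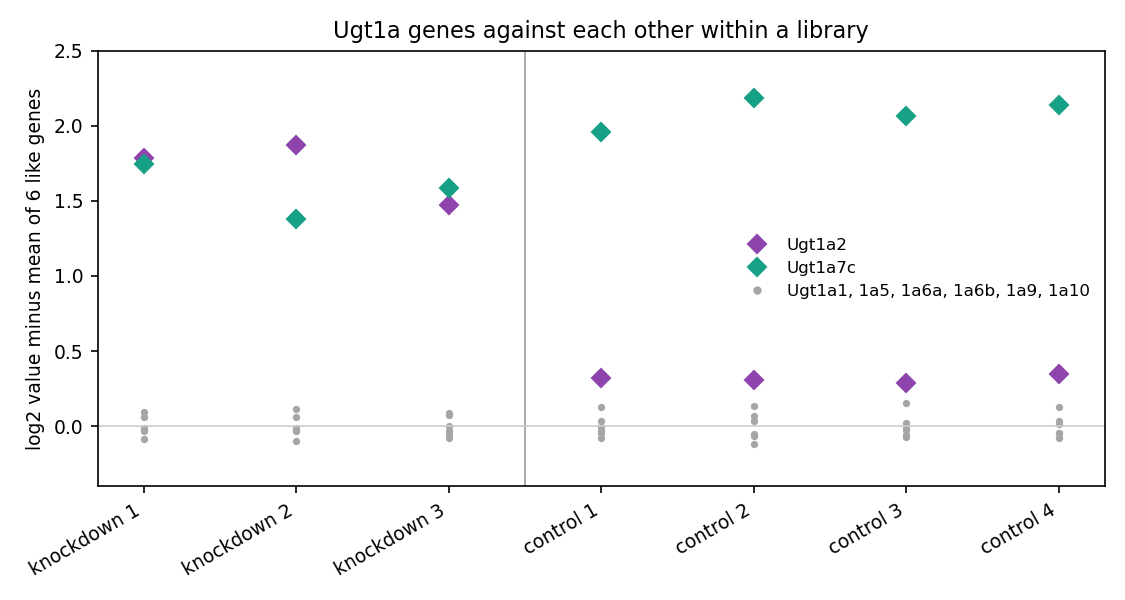
Log2 value of each Ugt1a gene minus the mean of 6 Ugt1a genes of like value, for each library. Ugt1a2 (purple) lies 1.47 to 1.87 above that mean in knockdown and 0.29 to 0.35 above it in control libraries, and Ugt1a7c (green) lies 1.38 to 1.74 above it in knockdown and 1.96 to 2.19 above it in control libraries.

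The Ugt2b genes lie on the minus strand of chromosome 5 (GRCm38), Ugt2b34 (ENSMUSG00000029260.15) at 86889767 to 86906937, Ugt2b37 (ENSMUSG00000057425.3) at 87240493 to 87254804 and Ugt2b38 (ENSMUSG00000061906.5) at 87409942 to 87424203. Enzymes of this subfamily conjugate steroids and bile acids among other substrates. Aligned end to end with gaps counted, the transcripts of Ugt2b37 and Ugt2b38 are 93.1% identical, and those of Ugt2b34 and Ugt2b38 44.4%. The second value is lowered by length, as the Ugt2b34 transcript has 3051 bases and that of Ugt2b38 1891. Of 3066 aligned positions 1360 were identical.

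Ugt2b38 had the largest difference of the family. It held 8.16, 7.01 and 6.66 on the log2 scale in the knockdown libraries, against 10.86, 11.06, 10.95 and 12.50 in the control libraries. Every knockdown library was lower than every control library, with a gap of 2.70 between them. The libraries of the CB6 pair held the extremes, the lowest knockdown value and the highest control value. Ugt2b38 averaged 7.28 ± 0.78 in knockdown libraries (SD, n = 3), against 11.34 ± 0.78 in control libraries (SD, n = 4). The log2 difference was -4.07 ± 0.46 (SE; 95% interval -5.12 to -3.02), or 16.8-fold lower in knockdown. It was -3.37 between the libraries titled G, -5.84 in the CB6 pair and -3.68 without control replicate 4. The call held in all 15 other settings, which refit the same libraries, with log2 differences of -4.51 to -3.37.

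Ugt2b37 held 5.73, 4.85 and 5.002 in knockdown and 8.01, 7.81, 7.46 and 8.51 in control glomeruli. The groups did not overlap, and the knockdown values were low but above the lowest value of any gene in those libraries (2.74 to 3.06). Ugt2b37 averaged 5.19 ± 0.47 in knockdown libraries (SD, n = 3), against 7.95 ± 0.44 in control libraries (SD, n = 4). The log2 difference of -2.75 ± 0.28 (SE) was 6.73-fold lower in knockdown and past the threshold, also in the 14 other settings in which it was fitted. It was -2.47 between the libraries titled G and -3.51 in the CB6 pair. Ugt2b38 exceeded Ugt2b37 in each library, by 2.42, 2.16 and 1.66 log2 units in knockdown and by 2.85, 3.26, 3.49 and 3.99 in control libraries. How far reads common to both genes, or to Ugt2b5, enter these values was not tested.

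Ugt2b34 was the Ugt2b gene without a call. It held 10.66, 10.19 and 10.03 in knockdown and 9.996, 10.51, 9.67 and 10.37 in control glomeruli. The groups overlapped, with a log2 difference of 0.16 ± 0.22 (SE; 95% interval -0.34 to 0.65) that was not past the threshold. Its sign differed between the title styles, 0.37 between the libraries titled G and -0.34 in the CB6 pair.

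The start regions of Ugt2b37 and Ugt2b38 were printed because these genes differed in the same direction. The 250 bases before each start, from RefSeq on GRCm38.p6, are given 5′ to 3′ on the minus strand, at chr5:87254789-87255038 for Ugt2b37 and at chr5:87424204-87424453 for Ugt2b38. Capitals mark the longest run that the pair has in common.
Ugt2b37: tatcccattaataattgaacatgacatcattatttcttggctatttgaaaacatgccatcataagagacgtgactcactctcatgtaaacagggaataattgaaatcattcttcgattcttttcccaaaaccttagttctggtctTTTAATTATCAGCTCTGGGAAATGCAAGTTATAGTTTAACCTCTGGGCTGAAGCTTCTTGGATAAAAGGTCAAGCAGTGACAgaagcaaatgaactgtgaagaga
Ugt2b38: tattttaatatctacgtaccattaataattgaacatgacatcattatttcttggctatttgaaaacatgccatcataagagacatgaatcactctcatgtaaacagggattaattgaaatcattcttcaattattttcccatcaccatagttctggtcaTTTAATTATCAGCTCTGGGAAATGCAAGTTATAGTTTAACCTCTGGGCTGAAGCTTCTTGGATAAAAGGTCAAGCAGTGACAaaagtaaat
The run is 82 bases long and ends 24 bases before the RefSeq start of Ugt2b37 and 10 bases before that of Ugt2b38. GENCODE M21 puts the start of Ugt2b37 at 87254804, inside its window, so the last bases printed for it belong to exon 1 in that annotation. Aligned over these windows the pair was 84.8% identical, while Ugt2b34 was 40.7% identical to Ugt2b37 and 40.8% to Ugt2b38. Windows of a Ugt1a gene and a Ugt2b gene, on different chromosomes, were 38.5% to 46.3% identical in the same alignment. The values of Ugt2b34 lie within that range. The letters GTTAAT, part of the site of the factor HNF1, were searched on both strands. They were absent from the windows of all 3 Ugt2b genes, and 6.43% of 32851 mouse promoter windows of this length contain them. Sites of HNF1 that differ from these exact letters were not searched, so their absence from these windows is not shown. Of the 7 Ugt1a genes with an entry, the windows of Ugt1a1, Ugt1a6a, Ugt1a9 and Ugt1a10 contain these letters, and those of Ugt1a2, Ugt1a5 and Ugt1a7c do not. The core GCGTG, bound by AHR and ARNT, was present in the window of Ugt1a5 only and is present in 28.2% of mouse windows.

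Levels of different genes were compared per kilobase of transcript, on the linear scale as the antilogarithm of the log2 value. Whether the deposited values already account for length is not given in the sources used here. Each value was divided by the whole length of 1 transcript, although it is not known how reads from shared sequence were assigned. The order of the genes below may depend on both. In knockdown glomeruli Ugt1a2 was highest at 1731 ± 268 per kilobase (SD, n = 3), followed by Ugt1a7c at 1067 ± 74.5 and Ugt1a1 at 557 ± 38.8. Ugt2b38 at 90.9 ± 52.6 and Ugt2b37 at 20.1 ± 7.01 were the lowest of the 11 genes. In control glomeruli Ugt2b38 had the highest mean at 1557 ± 1010 (SD, n = 4), with 3070 in control replicate 4 and 983 to 1132 in the other control libraries. It was followed by Ugt1a7c at 1152 ± 140, Ugt1a2 at 492 ± 44.2 and Ugt1a1 at 399 ± 40.2, and Ugt2b37 was lowest at 135 ± 42.3. Ugt2b38 and Ugt1a7c did not differ beyond their spread in controls, and the order of the pair rests on control replicate 4 and on the division by length. In control replicates 1, 2 and 3 Ugt2b38 held 983, 1132 and 1044 per kilobase, against 1100, 1356 and 1038 for Ugt1a7c. Undivided, the control mean on the log2 scale was 11.34 for Ugt2b38 and 11.85 for Ugt1a7c. The 6 genes of the Ugt1a band lay between 486 and 557 in knockdown and between 375 and 424 in control glomeruli, neighbours within their spread, with Ugt2b34 at 419 ± 99.3 in knockdown and 378 ± 95.7 in control glomeruli.

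The genes outside the family whose pattern came nearest were sought by the root mean square difference of values centred on each gene's own mean, over all 7 libraries. For Ugt1a2 these were Pck1, an enzyme of glucose synthesis, at 0.19 log2 units, Hao2, a peroxisomal oxidase, at 0.22, and Mttp, which loads lipid onto lipoproteins, at 0.26. Their log2 differences were 1.49, 1.85 and 1.63. For Ugt2b38 they were Slco1a1, an organic anion transporter, at 0.33, Inmt, a methyltransferase, at 0.46, and Ccl28, a chemokine, at 0.52. Their log2 differences were -4.15, -3.21 and -3.20. Ugt2b37 was at 0.75 from Ugt2b38, and Ugt1a1, the nearest member to Ugt1a2, at 0.66. All 7 libraries enter each distance, so a gene with a difference of like size comes out near.

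Ugt3a1, Ugt3a2 and Ugt8a, UDP-glycosyltransferases of other subfamilies, were lower in knockdown glomeruli. Of 4 such genes measured of 6 listed, 0 rose and 3 fell past the threshold, with a median log2 difference of -0.99. Ugt3a2, whose product uses other sugars than glucuronic acid, held 11.04, 10.27 and 10.56 in knockdown and 12.08, 12.42, 11.86 and 12.49 in control glomeruli. Its log2 difference was -1.59 ± 0.20 (SE; limma adjusted p = 0.0054), and no libraries overlapped. Ugt3a1, of the same kind, differed by -1.22 ± 0.21 (SE; limma adjusted p = 0.0213). Ugt8a, which adds galactose to ceramide in the making of galactolipids, differed by -0.76 ± 0.09 (SE; limma adjusted p = 0.0048). In Ugt3a1 and Ugt8a, too, all knockdown libraries were below all control libraries. The call of Ugt3a1 ended without knockdown replicate 3, without control replicate 4 and in the libraries titled G alone. Ugt2a2 was not past the threshold, with control values from 3.09 to 6.13.

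Both genes listed for glucuronide hydrolysis, Gusb and Ces1e, were lower in knockdown glomeruli, and of these only Gusb encodes the enzyme that hydrolyses glucuronides. Gusb, the beta-glucuronidase, held 9.45, 9.07 and 9.46 in knockdown and 10.14, 10.15, 10.57 and 10.29 in control glomeruli. The groups did not overlap, with a log2 difference of -0.96 ± 0.13 (SE; limma adjusted p = 0.0077). Ces1e, a carboxylesterase that holds beta-glucuronidase in the endoplasmic reticulum, differed by -1.61 ± 0.35 (SE; limma adjusted p = 0.0488). Its difference was -1.002 between the libraries titled G and -3.12 in the CB6 pair, and its call ended in 10 of 14 other settings, among them the leaving out of any 1 of the 7 libraries.

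Genes of UDP-glucuronate supply, of glucuronate and ascorbate metabolism and of heme breakdown were not past the threshold in limma. Of 6 supply genes 0 passed in limma, and 1 had an unadjusted p under 0.05, Pgm1, a phosphoglucomutase, at a log2 difference of -0.18 ± 0.08 (SE). Ugp2, which makes UDP-glucose, had a log2 difference of 0.0082 ± 0.07 (SE), and Pgm2, a related enzyme, of -0.09 ± 0.09. Of 6 measured genes of glucuronate and ascorbate metabolism, 0 passed in limma and 1 had an unadjusted p under 0.05. Among these, Miox, which opens inositol to glucuronate in the tubule, differed by -0.21 ± 0.09 (SE), and Akr1a1, which reduces glucuronate, by -0.15 ± 0.10. The 4 genes of heme breakdown, which ends in the bilirubin that Ugt1a1 conjugates, had 0 past the threshold in limma and 0 at an unadjusted p under 0.05. Hmox2, a heme oxygenase, differed by 0.04 ± 0.08 (SE), and Blvra, a biliverdin reductase, by -0.07 ± 0.10.

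Known regulators of the family and the targets of 2 of them were not past the threshold either. In limma 0 of 12 regulators measured passed, with 2 at an unadjusted p under 0.05. These were Nr1h4, the bile acid receptor, at a log2 difference of -0.42 ± 0.11 (SE; limma adjusted p = 0.0908), and Nfe2l2, a factor of the oxidative stress response, at 0.18 ± 0.08 (SE; limma adjusted p = 0.264). The most abundant in log2 value were Hnf4a, a nuclear receptor of liver and proximal tubule, at -0.06 ± 0.07 (SE), and Nr3c1, the glucocorticoid receptor, at 0.08 ± 0.08. Of 7 measured targets of Ahr, the dioxin receptor, and Nfe2l2, 0 passed and 3 had an unadjusted p under 0.05, all 3 with higher means in knockdown. Cyp1b1, a cytochrome P450, had a log2 difference of 0.61 ± 0.13 (SE; limma adjusted p = 0.0507) without overlap of the groups. Nqo1, a quinone reductase, had one of 0.39 ± 0.10 (SE; limma adjusted p = 0.0732), also without overlap, and Srxn1, which restores oxidised peroxiredoxins, one of 0.26 ± 0.11 (SE; limma adjusted p = 0.239). Among the others, Gclc and Gclm, the subunits of the first enzyme of glutathione synthesis, differed by -0.07 ± 0.08 (SE) and -0.04 ± 0.13. Among 7 exporters of conjugates 0 passed and 1 had an unadjusted p under 0.05. This was Abcc2, which moves glucuronides across the apical membrane, at 0.31 ± 0.10 (SE; limma adjusted p = 0.133), and Abcg2 differed by -0.15 ± 0.12. A missed threshold does not show that these genes were equal in both groups.

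Sulfation, the other main way of conjugating phenols and steroids, had 1 higher and 1 lower gene among 6 measured. Papss2, which makes the sulfate donor, held 12.62, 12.32 and 12.30 in knockdown and 11.71, 12.10, 11.54 and 11.80 in control glomeruli, without overlap. Its log2 difference was 0.63 ± 0.13 (SE; limma adjusted p = 0.0454). Sult1b1, a sulfotransferase for phenols and thyroid hormone, differed by -1.70 ± 0.36 (SE; limma adjusted p = 0.045). Both calls ended with title style as a covariate, without an intensity trend, without knockdown replicate 2, knockdown replicate 3, control replicate 3 or control replicate 4, and in the libraries titled G alone. Papss2 also lost its call without knockdown replicate 1 or control replicate 1, and Sult1b1 without control replicate 2. Of the others, Sult1d1, a sulfotransferase, had an unadjusted p under 0.05, at 0.33 ± 0.11 (SE; limma adjusted p = 0.168). Over all 9 lists, 1 gene was higher and 6 were lower among 54 measured, with a median log2 difference of -0.04. That is 12.96% past the threshold, against 3.02% of all symbols. The lists were chosen with earlier results of these data known, so this share is a description and not a test. The other UDP-glycosyltransferases gave 3 of the 7 calls, and glucuronide hydrolysis gave 2. In the libraries titled G alone, limma called 0 of the 54, with 10 at an unadjusted p under 0.05.

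**Figure D5:**
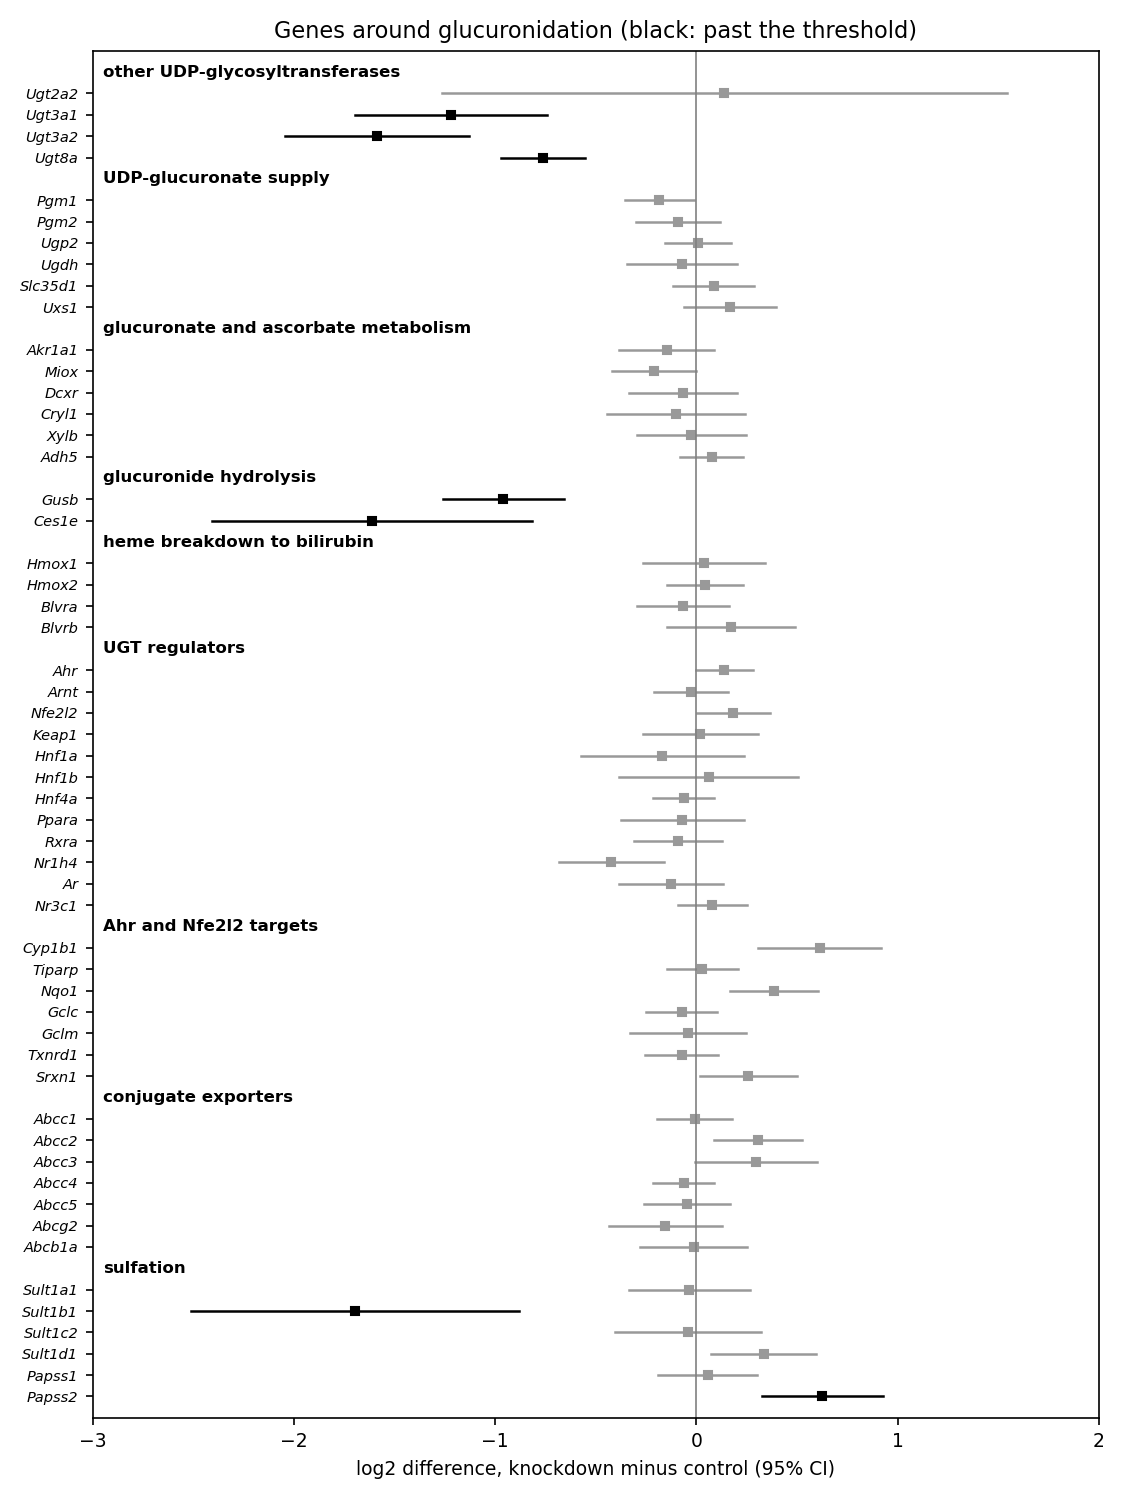
Log2 difference, knockdown minus control, with its 95% interval for the 54 measured genes of 9 lists around glucuronidation, black where the adjusted p was under 0.05. Ugt3a1, Ugt3a2, Ugt8a, Gusb, Ces1e and Sult1b1 are lower in knockdown, Papss2 is higher, and the other genes are grey.

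Markers of the proximal tubule, where these enzymes are known to be made, also differed between the groups, mostly towards lower values in knockdown. Of the 11 Ugt1a and Ugt2b genes, 8 had positive differences and 3 negative ones, where 56.2% of all symbols had positive ones. Of these 8 genes, 7 were Ugt1a genes, which share exons and may not be separate observations. Of 26 markers measured, 1 was higher (Pck1) and 11 were lower in knockdown past the threshold, with a median log2 difference of -0.40 and none at the minimum of its table. Their summed linear level ranged from 348743 to 443623 in knockdown and from 391110 to 504824 in control libraries, which overlap. Cyp2e1, a cytochrome P450, differed by -3.26 ± 0.15 (SE; limma adjusted p = 7.66e-05), and Kap, a kidney androgen-regulated protein, by -2.19 ± 0.27 (SE; limma adjusted p = 0.0048). Lrp2, the endocytic receptor megalin of the tubule, held 16.04, 15.56 and 15.60 in knockdown and 15.69, 16.04, 15.94 and 16.10 in control glomeruli, which overlap. The 10 podocyte markers had 0 higher and 1 lower, with sums of 252348 to 302794 in knockdown and 221519 to 309915 in control libraries. Of 12 markers of the distal nephron and collecting duct, 2 were higher (Atp6v1g3 and Slc4a1) and 0 lower, with a median log2 difference of 0.18. The part of tubular RNA in the differences of the Ugt1a and Ugt2b genes was not tested, and in these bulk samples fewer cells of a type and less RNA per cell cannot be told apart.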

How the data were processed

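Poly-A RNA of isolated glomeruli from 7 mice was sequenced, 1 library per mouse. Reads were aligned with BWA to mm10, per the submitters' processing notes; the sources used here do not give versions, counting, strand use or normalization. The authors deposited log2 values of 12958 symbols, in a table for each library. The log base is not stated and was read as 2; another base would scale fold changes but not the tests. Depth is unknown.

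The deposited log2 values of knockdown and control libraries were compared in limma 3.58.1 (R 4.3.3), with an intensity trend and Benjamini-Hochberg adjustment over 12958 symbols (threshold 0.05). No pseudocount was added. Genes had to exceed the minimum of the table in 3 or more libraries, which removed 0. The fit was tested on simulated data.

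The members and gene lists were chosen with earlier results of these data known. Named are all members, the listed genes past the threshold or, where a list had none, the 2 with the highest mean, the 3 genes nearest in pattern to Ugt1a2 and to Ugt2b38, and marker genes, Shroom3, Ugt2a2 and the 7 other listed genes with an unadjusted p under 0.05, chosen after their values were seen. Other settings tried were median scaling, quantile normalization, no trend, no filter, genes with means above the median only, title style as a covariate, the libraries titled G alone, each library left out, other thresholds, and leaving out 107 genes, none of them a member, that differ between the libraries titled G only by library offsets (within 0.003).

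The coefficient of title style was close to 0 over all genes (SD 0.03). Whether a batch adjustment preceded deposit was not tested. If one did, the main fit counts 5 residual degrees of freedom where 4 remain, and all its p-values and calls are too favourable. The fit with title style as a covariate has 4. It put 191 symbols past the threshold against 391 in the main fit. Of the Ugt1a and Ugt2b genes it called 3 against 6, and of the listed genes 4 against 7.

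Sequences and coordinates (1-based) came from GENCODE M21 (GRCm38, equal to mm10), which held all 11 members, and from RefSeq on GRCm38.p6, in which 10 members had a promoter entry. Shared windows and identities were computed in Python 3.11.15 with Biopython 1.88.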

Additional observations from a re-analysis of the deposited data

Results flagged for a closer look

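In the control group of 4 libraries, 37 genes (the 11 members and 26 listed genes) were examined for a library far from the others, and chance picks out about 1 in 20 such groups. Ugt2b38 had a value of 12.50 in control replicate 4, while the other control libraries held 10.86 to 11.06; its gap to the nearest of them took 0.876 of the range, above Dixon's critical value at the 95% level. Hnf4a had a value of 13.11 in control replicate 1, below 13.25 to 13.27 in the other control libraries, and its gap took 0.909 of the range. The causes were not tested.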

How the results depend on the processing

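No paired analysis was possible because the labels give neither litters nor replicate numbers. The replicate numbers used here only name the libraries of a group. Which mice shared a litter is thus left out of all fits. Over all genes 391 were past the threshold; the number was 191 with title style as a covariate, 40 in the libraries titled G alone, 846 at a threshold of 0.1 and 124 at 0.01. With a library left out it ranged from 134 (without knockdown replicate 2) to 480 (without control replicate 2). Of the 11 Ugt1a and Ugt2b genes 6 were past it; 3 were with title style as a covariate, in the libraries titled G alone and at 0.01, and 3 to 9 with a library left out. Of the listed genes 7 were past it; 4 were among genes with means above the median and with title style as a covariate, 3 at 0.01 and 3 to 7 with a library left out. In the libraries titled G alone limma called 0 of the 54, with 10 at an unadjusted p under 0.05, so that the calls of Ugt3a2, Ugt8a and Gusb, which held in the other settings, ended there. These libraries are fewer, 2 against 3; causes were otherwise not tested.

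Signs turned only for genes that were not past the threshold: in the libraries titled G alone Abcg2 to 0.0049, Gclm to 0.027 and Hmox2 to -0.028. With a library left out, Ugt2b34 ranged from -0.027 (without knockdown replicate 1) to 0.29. Gclm ranged from -0.15 to 0.045, turning without knockdown replicate 2 or control replicate 2. Ugp2 ranged from -0.038 to 0.055, turning when control replicate 1, control replicate 3 or knockdown replicate 1 was left out. Quantile normalization and median scaling moved the median of all genes by less than 0.01 and changed no call of the 11 genes. Ugt1a10, Papss2, Sult1b1 and Ces1e also lost their calls without an intensity trend. Of the listed genes named after their values were seen, Cyp1b1 passed the threshold in 3 of 14 other settings and Nqo1 in 1 of 14. Without counts, the precision of low values such as those of Ugt2b37 is unknown.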
